A study of Mus musculus with 46 samples.

Results

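The 47 genes described here act in DNA replication and in mitosis. They were taken by name as rows of the deposited expression table, and all 47 were found among its 53465 genes. The genes were listed by name and not by a cut on their values. Earlier results of these data were known when the list was chosen, so it is not independent of them. Messenger RNA was measured in 4 cell populations sorted by flow cytometry from mouse kidneys: proximal tubule (PT) cells on LTL, macrophages on F4/80, endothelial cells on CD31 and stromal cells on PDGFRB. The mice were wild type, and the study's methods describe male C57BL/6 animals aged 8 to 12 weeks. They had sham surgery, unilateral ureteric obstruction (UUO) or obstruction followed by reversal (rUUO), and the values used came from 3, 4 and 3 PT samples, 4, 4 and 3 macrophage samples, 4, 3 and 4 endothelial samples and 4, 4 and 4 stromal samples. According to the methods obstructed mice were culled at 2 or at 7 days and reversed mice 14 days after the ureter was reopened, and the day is not in the labels of the single samples. Obstruction in this model is set by surgery and not by a transgene, and each sorted sample is a mixture of all cells within its gate.

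A dividing cell copies its genome in S phase and separates the copies in M phase. Before replication the MCM2 to MCM7 proteins are loaded on DNA as the replicative helicase, and PCNA is the sliding clamp that holds DNA polymerases on the template. Cyclins A and B with CDK1 then drive entry into mitosis, where kinetochore proteins, Aurora and Polo kinases and motor proteins of the spindle separate the chromosomes, and the anaphase-promoting complex, with its partners CDC20 and UBE2C, marks cyclin B and other proteins for destruction. Most of these genes are transcribed only in part of the cycle. E2F factors act at the genes of S phase, and the DREAM and B-MYB complexes with FOXM1 act at the genes of mitosis, through promoter elements known as the CHR and the CCAAT box. Adult kidney cells divide rarely, and tubular, stromal and immune cells are known to re-enter the cycle after injury.

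Short promoter words known from genes of the cell cycle were searched in these genes, and examples are shown first. RefSeq promoter windows (250 bases before to 50 after the annotated start, build GRCm38.p6) were found for 39 of the 47 genes and not for Ccna2, Ccne2, Aurkb, Kif20a, Tpx2, Mcm4, Foxm1 and Stmn1. Words were sought on both strands and counted also where they overlapped each other. The CHR was searched as TTTGAA or TTCGAA, the E2F element as TTTCCCGC, TTTGGCGC, TTTGCCGC or TTTCGCGC, and the CCAAT box as CCAAT. A CHR word lay in the window of 23 of the 39 genes (59%) and of 21.7% of all 27025 genes with a window. It lay in 17 of the 20 mitotic genes with a window (85%), in 2 of the 7 helicase and clamp genes (28.6%) and in 0 of the 4 genes of nucleotide supply. The CHR share depended on the window: in the 250 bases before the start alone it was 33.3% of members and 35% of mitotic genes, against 19.6% of all genes. E2F words lay in 6 of 39 (15.4%) against 2.6% of all genes, in 4 of 7 helicase and clamp genes (57.1%), in 0 of 20 mitotic genes and in 0 of 4 genes of nucleotide supply. A CCAAT word lay in 32 of 39 (82.1%) against 41.1% of all genes, in 17 of 20 mitotic and in 7 of 7 helicase and clamp genes, and so did not separate these roles. Such a match describes the letters and is not evidence of a bound site.

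The 4 windows below are CHR examples from genes whose values are given in detail further on, 30 bases each, with the CHR word in capitals (TTCAAA is TTTGAA read on the other strand). They lie at chr9:70421533-70421562 on the minus strand (Ccnb2), chr4:118437344-118437373 on the minus strand (Cdc20), chr2:164769888-164769917 on the plus strand (Ube2c) and chr7:135716460-135716489 on the minus strand (Mki67).
Ccnb2: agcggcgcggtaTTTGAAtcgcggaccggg
Cdc20: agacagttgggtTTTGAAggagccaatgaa
Ube2c: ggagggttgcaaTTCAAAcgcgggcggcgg
Mki67: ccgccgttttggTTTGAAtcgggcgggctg

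In the deposited table Ccnb2 (ENSMUSG00000032218.7) lies on chromosome 9 at 70407692 to 70421547, Cdc20 on chromosome 4 at 118432901 to 118437352, Ube2c on chromosome 2 at 164769898 to 164778822 and Mki67 (ENSMUSG00000031004.8) on chromosome 7 at 135689784 to 135716361, all protein-coding. The windows of Ccnb2, Cdc20 and Ube2c span the start of the gene and that of Mki67 lies before it.

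The next 4 windows show E2F words in capitals in genes of the helicase, where GCGGGAAA is TTTCCCGC on the other strand. They lie at chr1:128359797-128359826 on the minus strand (Mcm6), chr5:138171849-138171878 on the minus strand (Mcm7), chr1:20820275-20820304 on the minus strand (Mcm3) and chr8:75109345-75109374 on the plus strand (Mcm5).
Mcm6: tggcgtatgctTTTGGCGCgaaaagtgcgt
Mcm7: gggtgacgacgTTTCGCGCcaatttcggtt
Mcm3: aaacttccgtgGCGGGAAAacttgggaagt
Mcm5: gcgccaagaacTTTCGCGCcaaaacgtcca

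Values are FPKM, the number of sequenced fragments scaled by transcript length and by the mapped total of the sample, and changes are differences of log2(FPKM + 1), a scale that understates the change of low genes. The FPKM sum was 586929 to 884982 per sample, mitochondrial genes took 58.7% to 75.6% of it in PT cells and 20.2% to 45.8% elsewhere, and Pearson's r across genes between samples of a group was 0.876 to 0.965, although genes are not independent replicates. The table holds no counts, so absolute depth is unknown, and relative depth ranged from 0.608 to 1.58 with 1 as the median sample. Each population held its own markers: the 8 macrophage markers summed to between 10940 and 14260 FPKM in sham macrophages and to between 42.7 and 91.2 FPKM in the other sham samples. Markers of other cells were present too. In sham, 4 thick ascending limb markers summed to between 142.8 and 685.2 FPKM in endothelial and between 259.5 and 335.1 FPKM in stromal samples. The 8 PT markers summed to between 226.9 and 344.8 FPKM in endothelial sham. Sham macrophages held between 42.47 and 57.81 FPKM of 4 B cell markers, and other sham samples at most 1.73 FPKM. What these cells contributed was not tested. The labels do not say whether samples of a group were processed apart, so p-values measure the spread between these samples, part of which may be technical. In a sorted mixture, fewer cells of a type and less RNA per cell cannot be told apart. All comparisons within a population share their groups, so the UUO against sham and rUUO against UUO values rest on the same UUO samples.

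Without obstruction, levels of most of these transcripts were highest in the macrophage samples, which also held the B cell markers given above. Of the 47 genes, 37 had a mean of at least 1 FPKM in sham macrophages, 22 in stromal cells, 19 in endothelial cells and 13 in PT cells, and the median of the gene means was 2.86, 0.86, 0.762 and 0.403 FPKM. The sham macrophage mean was the highest of the 4 populations for 41 genes, the exceptions being Rrm2 (highest in PT cells), Aurka and Tyms (endothelial) and Ccnb1, Cenpe and Foxm1 (stromal). After obstruction macrophages were highest for 34 genes and stromal cells for 13, among them Ccna2, Ccnb1, Ccnb2, Bub1, Plk1 and Cdc20, and after reversal macrophages were again highest for 40. PT cells were lowest for 29, 41 and 31 genes in the sham, UUO and rUUO groups.

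**Figure D1:**
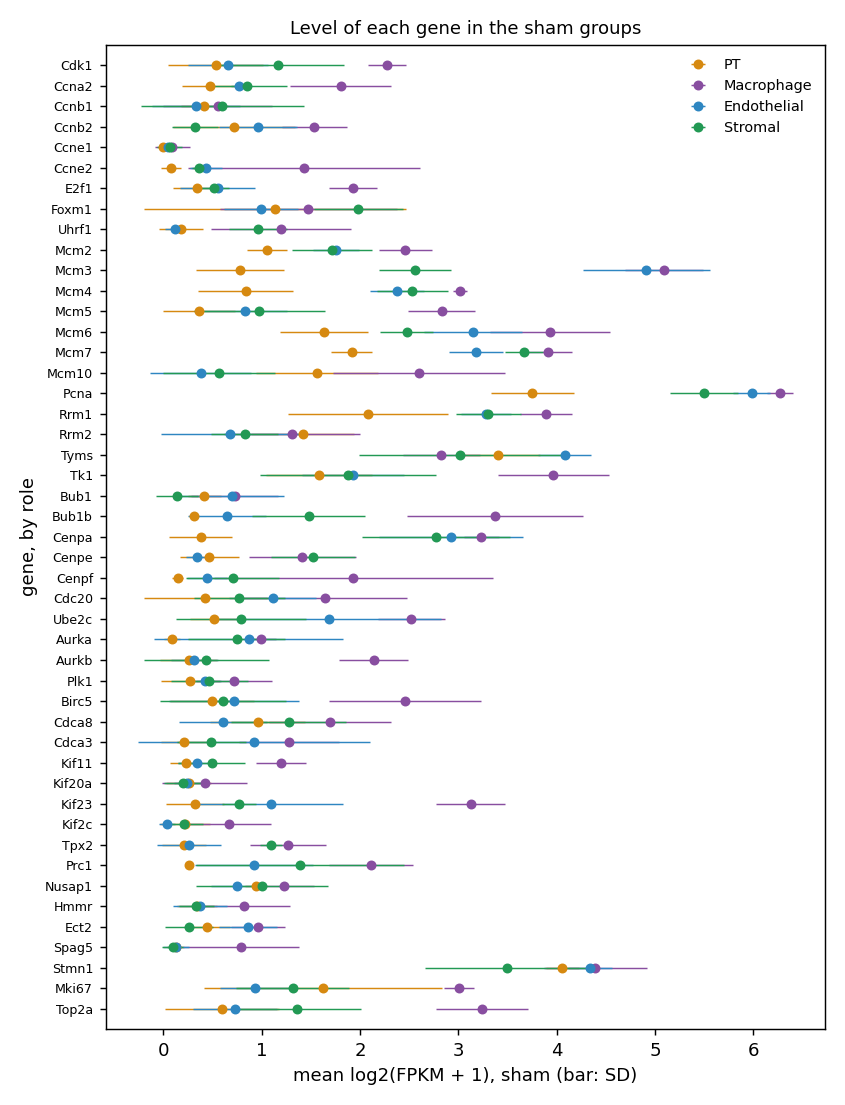
Mean log2(FPKM + 1) of each gene in the sham groups (x axis), with genes on the y axis in the order of their roles and bars for the SD over 3 PT samples or 4 samples of another population. Macrophage points lie farthest right for most genes, Pcna has the highest level in each population but PT cells, and Mcm3 lies near 5 in macrophages and endothelial cells and below 3 in PT and stromal cells.

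The sham groups were tested against each other in 1 limma fit over all 44 samples, in which 46 of the 47 genes passed the filter of a mean of at least 1 FPKM in some population. PT cells had lower levels than macrophages in 26 genes, where 46.2% of the 16931 genes were called lower, and lower levels than endothelial cells in 7 (45.4% of genes) and than stromal cells in 8 (52.1%), or 5 without PT sham replicate 4. The median of all genes was itself 0.73 to 0.91 lower in PT cells on the log2 scale, and the direction of the PT counts depended on the scaling. With quantile normalization 14 members were lower and 2 higher than in macrophages, 3 lower and 5 higher than in endothelial cells and 2 lower and 7 higher than in stromal cells. Rescaled without mitochondrial genes, the numbers were 19 and 1, 5 and 3, and 5 and 2. Mcm6 and Cenpe, lower in PT than in stromal cells by 0.84 and 1.06, turned to 0.47 and 0.03 after quantile normalization. Mcm10, a replication initiation factor, was the 1 member called higher in PT than in endothelial cells (1.18 ± 0.46 SE, adjusted p = 0.0282, where 8.04% of genes were called higher), and the call was lost without the filter and with rescaling to TPM. In sham macrophages 19 members were higher than in endothelial cells and 1 was lower, while 19.5% of all genes were higher and 21.3% lower, and 19 members were higher than in stromal cells, while 18.5% of all genes were. Endothelial and stromal cells differed in 2 members, the helicase subunit Mcm3, higher in endothelial cells like 8.87% of genes, and the kinetochore motor Cenpe, lower like 13.2%, and in 4 without stromal sham replicate 1.

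Mcm3 had the largest difference of any member in 4 of the 6 pairs of sham populations, the exceptions being Bub1b between macrophages and endothelial cells and Cenpa between PT and stromal cells. Its sham levels were 43.6, 24.38, 40.43 and 27.98 FPKM in macrophages and 33.86, 34.74, 14.55 and 41.26 FPKM in endothelial cells. In stromal cells they were 4.33, 5.01, 7.32 and 3.57 FPKM, and in PT cells 1.26, 0.22 and 0.83 FPKM. The macrophage and endothelial ranges overlapped each other, and every sample of both lay above every stromal and PT sample. The difference on the log2 scale was 2.35 ± 0.48 (SE) between endothelial and stromal cells (adjusted p = 0.000183) and −4.32 ± 0.52 between PT cells and macrophages (adjusted p = 3.08e-09). The other helicase subunits did not share this pattern between endothelial and stromal cells, where none of Mcm2, Mcm4, Mcm5, Mcm6 and Mcm7 was called.

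The genes called higher in sham macrophages came from all 8 roles into which the 47 genes were divided. Against endothelial cells the largest differences were those of the spindle checkpoint kinase Bub1b (2.73 ± 0.56 SE, adjusted p = 9.46e-05), of topoisomerase Top2a (2.51 ± 0.38, adjusted p = 7.69e-07) and of Mcm10 (2.22 ± 0.42, adjusted p = 3.9e-05). Against stromal cells they were those of Mcm3 (2.53), of the central spindle motor Kif23 (2.36 ± 0.46, adjusted p = 4.16e-05) and of thymidine kinase Tk1 (2.09 ± 0.53, adjusted p = 0.00115). Tyms, thymidylate synthase, was the exception, 1.26 ± 0.45 lower in macrophages than in endothelial cells (adjusted p = 0.0209). Mki67, the gene of the Ki-67 proliferation antigen, was 2.07 ± 0.39 and 1.69 ± 0.39 higher in macrophages than in endothelial and stromal cells (adjusted p = 2.48e-05 and 0.000352).

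After obstruction the mean level of the 47 genes was higher in all 4 populations. The mean log2(FPKM + 1) over the 47 genes went from 0.825 ± 0.046 (SD, n = 3) to 1.253 ± 0.227 (n = 4) in PT cells, from 2.165 ± 0.119 (n = 4) to 3.123 ± 0.252 (n = 4) in macrophages, from 1.279 ± 0.102 (n = 4) to 2.072 ± 0.379 (n = 3) in endothelial cells and from 1.278 ± 0.174 (n = 4) to 2.587 ± 0.709 (n = 4) in stromal cells. In each population the lowest UUO sample lay above the highest sham sample. After reversal the means were 1.148 ± 0.074 (n = 3), 2.750 ± 0.136 (n = 3), 1.659 ± 0.080 (n = 4) and 1.930 ± 0.061 (n = 4), between the sham and UUO means. This mean was chosen as a summary and carries no test. Fitted without a filter on low values, 45 of the 47 genes had a positive UUO change in macrophages, endothelial cells and stromal cells, and 37 in PT cells. Their median change in that fit was 0.47 in PT cells, 0.93 in macrophages, 0.71 in endothelial cells and 1.26 in stromal cells, and that of all genes fitted was 0.13, −0.01, 0 and −0.04.

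**Figure D2:**
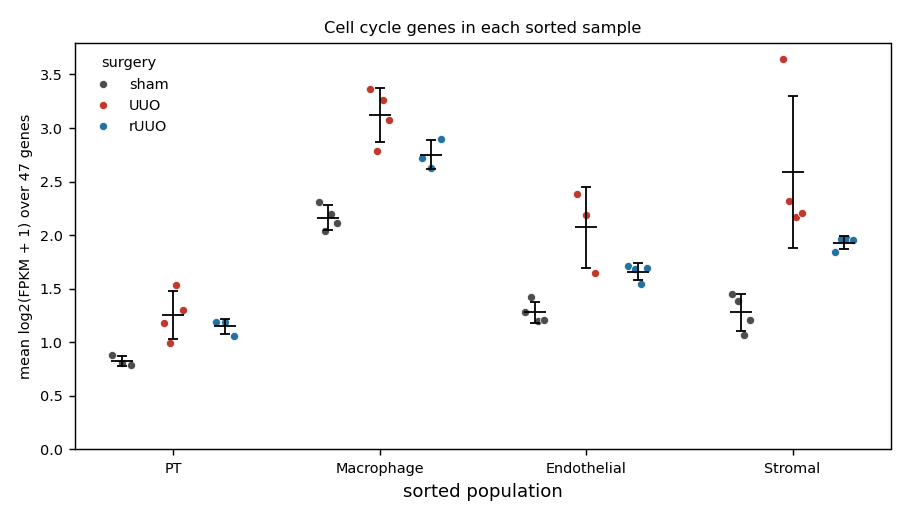
Mean log2(FPKM + 1) over the 47 genes (y axis) in each sample, by sorted population and surgery; horizontal lines are group means and bars the SD. UUO points lie above the sham points of the same population, and stromal UUO replicate 1 lies at 3.647 while the other stromal UUO samples lie between 2.172 and 2.321.

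Stromal cells had the largest number of changed genes. Against sham, 23 of the 42 genes that passed the filter rose in stromal UUO cells and none fell, where 13.4% of the 14033 genes tested rose and 13% fell. The median change was 1.33 over the 42 genes and −0.07 over all genes. Genes that were low in sham could pass the filter through their UUO values, and only 22 of the 47 had a sham mean of at least 1 FPKM, so the counts over tested genes are no support for a direction. Without a filter 18 of all 47 genes rose and none fell, while 5.77% of all genes fitted rose and 6.34% fell. UUO replicate 1 held the highest stromal UUO value for 40 of the 47 genes, and without it 16 of 39 genes rose, all 16 among the 23, with a median change of 1.01, while 12.9% of genes rose. The 7 genes that no longer passed were Uhrf1, Kif11, Tyms, Cenpf, Tpx2, Ect2 and Rrm1. The 19 genes not called included 6 of the 7 helicase and clamp genes tested.

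Levels of other cell types moved in the same stromal samples. The sum of the 8 stromal markers went from between 1085 and 2355 FPKM in sham to between 6580 and 10250 FPKM in UUO, and that of 4 monocyte markers from between 5.57 and 19.45 to between 73.9 and 138.4 FPKM, with Chil3 at 0 throughout. The 5 T cell markers summed to between 0.5 and 2.36 FPKM in sham and between 3.41 and 29.75 FPKM in UUO (Cd3g and Cd3d at 0), and 4 neutrophil markers to between 0 and 0.42 and between 5.63 and 53.61 FPKM (Ly6g and Retnlg at 0). The 4 thick ascending limb markers went from between 259.5 and 335.1 to between 28.7 and 54.2 FPKM. Mitochondrial genes took 34.0% to 45.8% of FPKM in stromal sham and 21.5% to 26.4% in UUO, and the number of genes with at least 1 FPKM was 13389 to 14464 and 12322 to 12839, without overlap in either. UUO replicate 1 had the highest monocyte sum, and its stromal, T cell and neutrophil sums lay inside the range of the other 3 UUO samples. What these cells and library measures contributed to the changes below was not tested.

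Among the cyclins, Ccnb2, cyclin B2, had the largest change of any member in any population. It was at 0.09, 0.23, 0.58 and 0.15 FPKM in stromal sham cells, at 37.22, 4.72, 6.89 and 17.46 FPKM in UUO and at 1.1, 1.74, 2.55 and 1.13 FPKM in rUUO. The 3 groups did not overlap, with rUUO between sham and UUO. The log2 change was 3.42 ± 0.49 (SE, adjusted p = 8.69e-05) for UUO against sham and −2.38 ± 0.49 (adjusted p = 0.0145) for rUUO against UUO, and without UUO replicate 1 the first was 2.91. Its promoter holds the CHR word shown above near the start. Cyclin A2 (Ccna2), which acts in S phase and at mitotic entry, was at 0.7, 1.57, 0.3 and 0.86 FPKM in sham and at 15.11, 7.6, 3.35 and 3.97 FPKM in UUO (2.04 ± 0.52, adjusted p = 0.00869), and its rUUO samples at 1.54, 1.2, 0.75 and 8.2 FPKM spread across both ranges. Cyclin B1 (Ccnb1) and Cdk1 had stromal changes of 1.38 (adjusted p = 0.118) and 1.12 (adjusted p = 0.146). Ccnb1 was at 17.27 FPKM in UUO replicate 1 and between 0.79 and 1.71 FPKM in the other 3. Of the E cyclins, which act at the start of S phase, Ccne1 did not pass the filter in any population and was at 0, 0.19, 0 and 0 FPKM in stromal sham and at 3.5, 0.82, 0.35 and 1.15 FPKM in UUO, without overlap. Ccne2 passed the filter in macrophages alone, with a change of −0.14 (adjusted p = 0.921), and its highest value was 7.7 FPKM in a sham sample.

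The markers most used for dividing cells rose as well. Mki67 was at 2.35, 2.51, 0.52 and 1.14 FPKM in stromal sham cells, at 25.55, 6.34, 9.21 and 6.48 FPKM in UUO and at 3.69, 3.9, 4.24 and 5.44 FPKM in rUUO. The groups did not overlap, and the change against sham was 2.15 ± 0.41 (adjusted p = 0.00107). Top2a, which untangles replicated DNA, was at 3.24, 2.21, 0.55 and 1.08 FPKM in sham and at 16.92, 5.7, 4.25 and 4.74 FPKM in UUO (1.59 ± 0.41, adjusted p = 0.00927), while its rUUO values of 5.06, 3.81, 4.39 and 5.29 FPKM lay above sham and overlapped the lower UUO values.

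Of the 7 kinetochore and checkpoint genes 4 rose in stromal cells, Bub1, Cenpf, Cdc20 and Ube2c, and 3 without UUO replicate 1. Cdc20, an activator of the anaphase-promoting complex, was at 0.93, 0.81, 1.26 and 0.08 FPKM in sham, at 16.94, 5.18, 2.76 and 12.34 FPKM in UUO and at 1.28, 0.87, 2.29 and 0.38 FPKM in rUUO. Every UUO sample lay above every other sample. Its change was 2.34 ± 0.47 (adjusted p = 0.00174) against sham, and with Ccnb2 it was 1 of the 2 members that fell from UUO to rUUO (−2.04 ± 0.47, adjusted p = 0.0267). Ube2c, the ubiquitin-conjugating enzyme of the same complex, was at 1.81, 1.2, 0 and 0.43 FPKM in sham and at 24.45, 13.75, 16.39 and 0.94 FPKM in UUO (2.62 ± 0.62, adjusted p = 0.00535). The fourth UUO sample lay inside the sham range, so that the groups overlapped. Cenpa, the centromere histone, did not pass in stromal cells (0.66) although it did in macrophages.

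Birc5, Cdca8 and Cdca3 rose among the 6 genes of the mitotic kinase and passenger complex group, while the kinases Aurka, Aurkb and Plk1 had changes of 0.88, 1.18 and 1.56 that did not pass (adjusted p = 0.179, 0.0817 and 0.0598). Birc5 encodes survivin, which guides Aurora B to centromeres. It was at 1.77, 0.21, 0 and 0.62 FPKM in stromal sham cells and at 41.55, 4.22, 4.14 and 4.53 FPKM in UUO, with rUUO samples at 0.93, 2.68, 1.21 and 4.28 FPKM. UUO replicate 1 stood far above the other UUO samples, which still lay above all sham samples. The change was 2.55 ± 0.61 (adjusted p = 0.0059) and 1.79 ± 0.45 without that sample (adjusted p = 0.0092).

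Of the 11 spindle and cytokinesis genes 9 were tested in stromal cells and 7 rose, with a median change of 1.82 over the 9. They were Kif11, Kif20a, Kif23, Tpx2, Hmmr, Ect2 and Stmn1, of which 4 (Kif20a, Kif23, Hmmr and Stmn1) rose without UUO replicate 1. Kif20a, a motor of the central spindle, was between 0.05 and 0.39 FPKM in sham and between 1.78 and 14.03 FPKM in UUO (2.19 ± 0.46, adjusted p = 0.00236). Stmn1, a microtubule-destabilising protein that is also expressed outside division, was at 15.96, 10.21, 4 and 16.04 FPKM in sham, at 62.6, 15.49, 32.89 and 70.21 FPKM in UUO and at 32.89, 29.48, 35.22 and 31.15 FPKM in rUUO. Its UUO range overlapped that of sham and its rUUO range did not. The change was 1.82 ± 0.43 (adjusted p = 0.00535) in UUO and 1.55 ± 0.43 (adjusted p = 0.0207) in rUUO, both against sham.

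Of the 4 genes that supply DNA precursors, 3 rose in stromal cells, and Rrm2 alone without UUO replicate 1 (adjusted p = 0.117 for Rrm1 and 0.111 for Tyms). Rrm2, the regulated subunit of ribonucleotide reductase, was at 1.24, 0.86, 0.28 and 0.85 FPKM in stromal sham cells and at 14.94, 7.68, 6.07 and 1.4 FPKM in UUO, with no overlap (1.97 ± 0.49, adjusted p = 0.00713). Rrm1 and Tyms rose by 1.01 and 1.52 (adjusted p = 0.0373 and 0.034). Tk1 had a change of 1.41 (adjusted p = 0.122), with 36.56 FPKM in UUO replicate 1 and between 1.83 and 12.04 FPKM in the other 3.

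**Figure D3:**
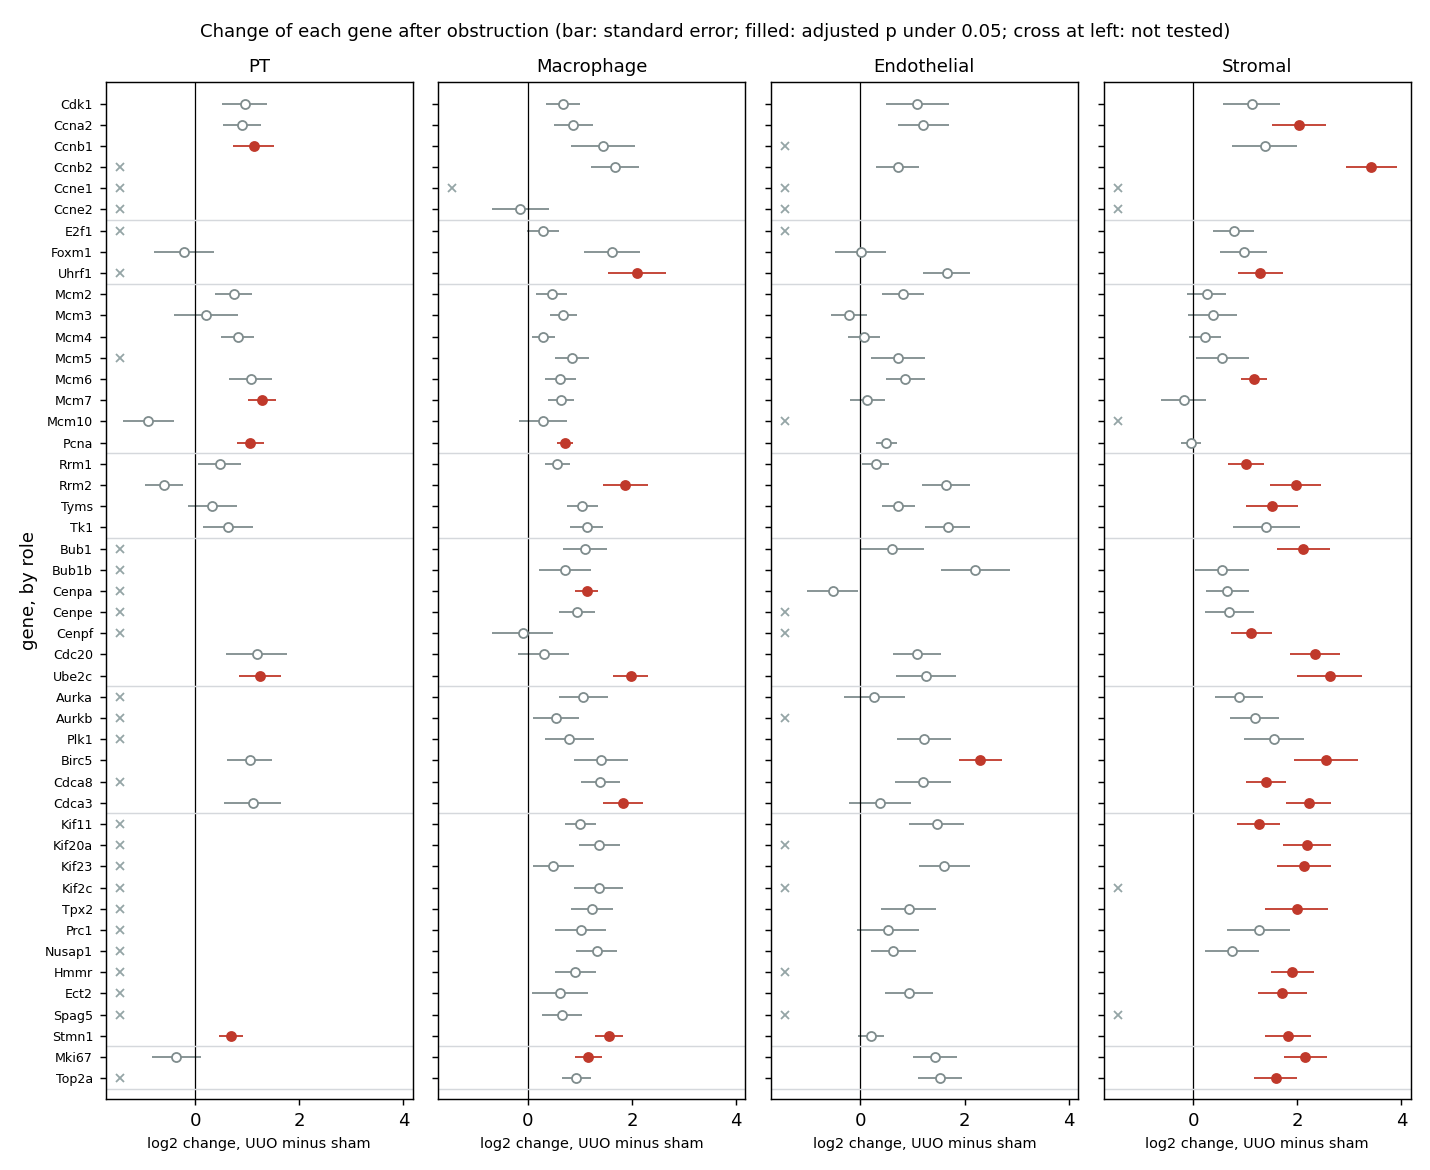
Log2 change from sham to UUO (x axis, UUO minus sham on log2(FPKM + 1)) of each gene in the 4 populations, with bars for the standard error; genes are in the order of their roles with grey lines between roles, filled red points have an adjusted p under 0.05 and crosses at the left edge mark genes that did not pass the filter. Filled points number 5 in PT cells, 8 in macrophages, 1 in endothelial cells and 23 in stromal cells, where Ccnb2 lies farthest right at 3.42.

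Of the 8 genes of the helicase and the clamp, 7 were tested in stromal cells and 1 was called, with a median change of 0.26. Pcna was at 51.06, 51.09, 30.66 and 47.55 FPKM in sham, at 36.92, 46.78, 43.65 and 45.74 FPKM in UUO and at 48.24, 55.22, 45.37 and 63.53 FPKM in rUUO. The UUO values lay inside the sham range, and the change was −0.04 ± 0.20 (adjusted p = 0.919). Mcm7, with an E2F word in its window, had a change of −0.18 ± 0.43 (adjusted p = 0.793), and its UUO samples at 21.15, 14.02, 12.16 and 2.55 FPKM spread on both sides of the sham samples at 10.62, 13.38, 10.01 and 13.05 FPKM. Mcm2, Mcm3, Mcm4 and Mcm5 had changes of 0.26, 0.37, 0.23 and 0.56, none of which passed. Mcm6 was the gene that rose. It was at 4.89, 4.69, 5.64 and 3.28 FPKM in sham, at 11.72, 13.69, 11.93 and 9.12 FPKM in UUO and at 13.92, 16.15, 12.05 and 8.87 FPKM in rUUO. Sham lay below both other groups, which overlapped, and the change was 1.17 ± 0.25 (adjusted p = 0.00286) in UUO and 1.28 ± 0.25 (adjusted p = 0.00225) in rUUO. Without UUO replicate 1 the Mcm6 change was 1.16 (adjusted p = 0.00723).

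Of the regulators, Uhrf1, which recruits DNA methyltransferase to replicated DNA, rose in stromal cells, while E2f1 and Foxm1 had changes of 0.78 and 0.97 that did not pass (adjusted p = 0.159 and 0.132). Uhrf1 was at 0.81, 1.63, 0.82 and 0.67 FPKM in sham, at 10.89, 3.28, 2.44 and 1.97 FPKM in UUO and at 4.23, 6.03, 3.77 and 10.35 FPKM in rUUO. Sham lay below both other groups. It passed against sham in UUO (1.29 ± 0.43, adjusted p = 0.0371) and in rUUO (1.78 ± 0.43, adjusted p = 0.00917). Without UUO replicate 1 the UUO change was 0.85 (adjusted p = 0.116).

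After reversal, 2 of 42 genes fell in stromal cells relative to UUO, Ccnb2 and Cdc20, where 1.22% of all genes fell, and the median of the 42 genes was −0.77 against 0.19 over all genes. Without UUO replicate 1, or without any of rUUO replicates 1, 2 and 6, 1 gene was called, and without UUO replicate 4 the number was 4. Both calls were lost without the filter and with a replicate block (0 in each), while the fit over all 4 populations gave 7. Against sham, 3 of the 42 genes were higher in rUUO, Uhrf1, Stmn1 and Mcm6 (11.6% of all genes were higher), with a median change of 0.70 against 0.15. As a mean over its genes, the helicase and clamp group went from 2.498 ± 0.050 (SD, n = 4) in stromal sham to 2.817 ± 0.435 in UUO and 3.000 ± 0.097 in rUUO on the log2(FPKM + 1) scale, with rUUO the highest of the 3 means. The 24 genes of mitosis went from 0.897 ± 0.257 to 2.439 ± 0.752 and 1.5 ± 0.128, and those of nucleotide supply from 2.259 ± 0.170 to 3.738 ± 0.975 and 3.250 ± 0.102. The rUUO ranges of all 3 groups of genes lay above their sham ranges.

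**Figure D4:**
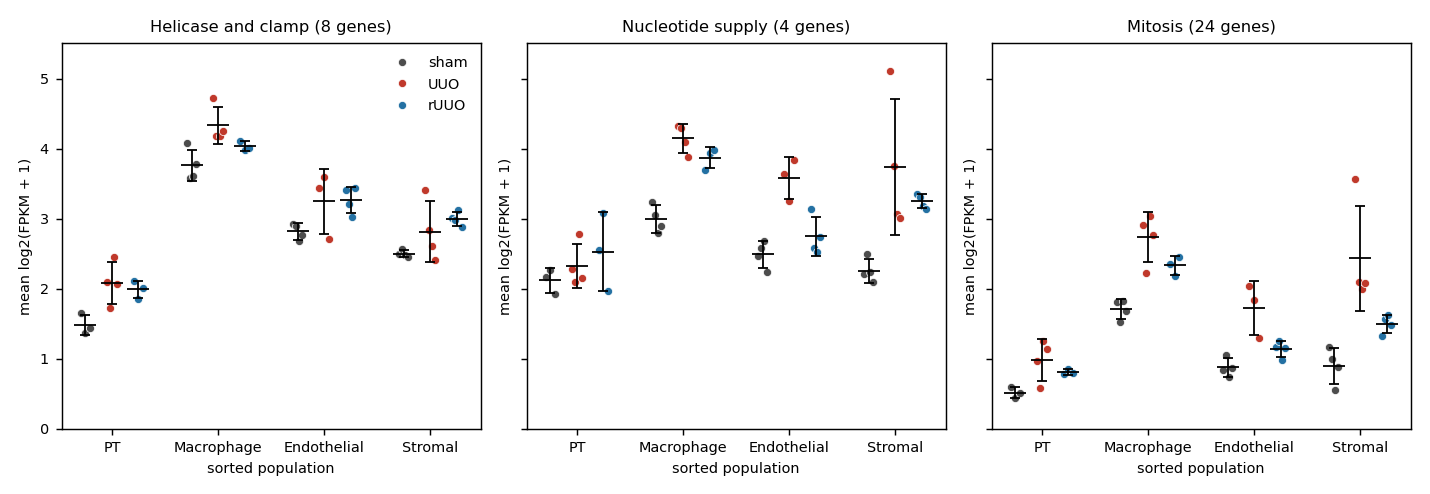
Mean log2(FPKM + 1) (y axis) over the 8 helicase and clamp genes, the 4 genes of nucleotide supply and the 24 genes of mitosis in each sample, by population and surgery; lines are group means and bars the SD. In stromal cells the mitosis mean rises from 0.897 in sham to 2.439 in UUO and is 1.5 in rUUO, while the helicase and clamp mean is highest in rUUO at 3.000.

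In the sorted macrophage samples Mki67, Pcna and 6 other genes were higher after obstruction than after sham surgery. Of 46 genes tested, 8 rose in UUO and none fell, while 2.86% of the 13332 genes rose and 2.13% fell, and the median change was 0.94 over the 46 genes and −0.03 over all genes. The other 6 were Cenpa, Ube2c, Cdca3, Rrm2, Stmn1 and Uhrf1, and no cyclin passed. Leaving out sham replicate 1 or 3 gave 5 genes, leaving out sham replicate 2 gave 4 and leaving out UUO replicate 2 gave 12. Mitochondrial genes took 37.8% of FPKM in UUO replicate 2 and between 20.4% and 28.0% in the other macrophage samples. What this library measure contributed was not tested. Without a filter 5 of all 47 rose (0.758% of all genes fitted). In the same samples the 4 monocyte markers went from between 51.99 and 93.67 FPKM to between 227.8 and 270.0 FPKM, the 4 neutrophil markers from between 3.15 and 8.1 to between 10.73 and 90.73 FPKM and the 5 T cell markers from between 0 and 0.72 to between 4.22 and 54.79 FPKM. In sham the defining markers Ly6g, Retnlg, Lck and Cd3g were at 0, in UUO none of these lists had a marker at 0 in all samples, and what these cells contributed was not tested.

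Ube2c had the smallest adjusted p among members in macrophages. It was at 5.55, 3.64, 6.49 and 3.78 FPKM in sham, at 43.54, 21.78, 15.57 and 14.43 FPKM in UUO and at 6.47, 9.87 and 8.29 FPKM in rUUO. Every UUO sample lay above all others, and rUUO overlapped sham at its lower end. The UUO change was 1.97 ± 0.33 (adjusted p = 0.00372). Mki67 was at 8.13, 7.39, 6.32 and 6.47 FPKM in sham, at 13.64, 25.48, 14.38 and 16.8 FPKM in UUO and at 12.77, 8.7 and 15.7 FPKM in rUUO. Both later groups lay above sham and overlapped each other, with a UUO change of 1.17 ± 0.26 (adjusted p = 0.0204). Stmn1 was at 19.8, 17.71, 13.57 and 33.52 FPKM in sham and between 55.86 and 64.7 FPKM in UUO (1.56 ± 0.27, adjusted p = 0.00465). Cdca3, a trigger of mitotic entry, was between 0.76 and 2.83 FPKM in sham and between 3.9 and 12.83 FPKM in UUO (1.84 ± 0.38, adjusted p = 0.0151).

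The clamp gene Pcna rose in macrophages. It was at 71.59, 69.72, 78.71 and 85.59 FPKM in sham, at 128.93, 122.25, 145.81 and 107.49 FPKM in UUO and at 118.53, 110.43 and 142.62 FPKM in rUUO. All UUO and rUUO samples lay above all sham samples. The change was 0.71 ± 0.16 (adjusted p = 0.0212) in UUO and 0.69 ± 0.17 (adjusted p = 0.0432) in rUUO against sham. Cenpa, which marks centromeres, was at 9.7, 9.14, 7.91 and 7.15 FPKM in sham, at 16.17, 18.14, 20.41 and 24.72 FPKM in UUO and at 13.12, 21.08 and 18.46 FPKM in rUUO, again with sham below all others (1.13 ± 0.23, adjusted p = 0.0123 in UUO and 0.95 ± 0.24, adjusted p = 0.0479 in rUUO). These 2 genes were the members called in macrophage rUUO against sham, where 1.89% of genes were higher, and leaving out any of the 7 sham and rUUO samples brought the count to 0 or 1.

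Rrm2 and Uhrf1 varied more in macrophages. Rrm2 was at 3.92, 1.36, 0.97 and 0.65 FPKM in sham, at 8.2, 17.77, 5.4 and 5.12 FPKM in UUO and at 4.13, 7.81 and 4.56 FPKM in rUUO, with all sham samples below the rest (1.87 ± 0.43, adjusted p = 0.0244). Uhrf1 was at 3.03, 0.39, 0.67 and 1.95 FPKM in sham and at 17.71, 2.23, 19.25 and 6.58 FPKM in UUO, where the second UUO sample fell inside the sham range (2.10 ± 0.55, adjusted p = 0.0434). Tk1 just missed the threshold (1.13 ± 0.31, adjusted p = 0.0534), with 61.74 FPKM in UUO replicate 1 and between 26.13 and 28.44 FPKM in the other 3. Between rUUO and UUO limma called no member, and 0% of all genes were called. At an unadjusted p under 0.05 the number was 5 of 46, and the share of all genes at that level was not taken.

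Endothelial cells showed positive changes in most of these genes but few calls. Without a filter 45 of the 47 had a positive UUO change and 1, Birc5, was called (0.359% of all genes fitted rose). With the filter 35 were tested, many of them through their UUO values, since 19 of the 47 had a mean of at least 1 FPKM in sham and 39 in UUO. Of these 1, again Birc5, was called, where 1.28% of the 13393 genes rose and 0.702% fell. At an unadjusted p under 0.05 by limma the number was 17 of 35, and the share of all genes at that level was not taken. UUO replicate 4 had the lowest mean of the 47 genes (1.650) of the 3 UUO samples, and without it 3 genes were called, while without sham replicate 3 the number was 2. The 4 thick ascending limb markers went from between 142.8 and 685.2 FPKM in sham to between 51.6 and 179.4 FPKM in UUO, with both highest values in these samples, sham replicate 3 and UUO replicate 4, and the part of these cells was not tested.

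Birc5 was at 0.12, 1.62, 0.1 and 1.26 FPKM in endothelial sham cells, at 7.2, 6.24 and 7.98 FPKM in UUO and at 1.33, 1.13, 1.69 and 0.85 FPKM in rUUO. The UUO samples lay together and above all others, and rUUO samples lay within or just above the sham range. The change was 2.30 ± 0.41 (adjusted p = 0.00662) for UUO against sham and −1.86 for rUUO against UUO (adjusted p = 0.117). Mki67 was at 0.51, 1.67, 0.99 and 0.66 FPKM in sham and at 5.75, 4.84 and 2.46 FPKM in UUO, without overlap, and did not pass (1.43 ± 0.43, adjusted p = 0.118). Top2a had a change of 1.53 ± 0.43 (adjusted p = 0.0869) and Tk1 of 1.68 ± 0.43 (adjusted p = 0.0593). For rUUO against UUO no member passed by limma, where 0.0597% of all genes were called at the adjusted threshold. For rUUO against sham none passed either, where 1.77% of all genes were called. In each of these comparisons 7 of 35 members had an unadjusted p under 0.05. The share of all genes at that level was not taken, so these counts have no background.

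PT cells had the lowest levels and their changes depended on the scaling. Of 21 genes tested 5 rose in UUO, Mcm7, Ube2c, Ccnb1, Pcna and Stmn1, and none fell, while 27.9% of 11416 genes rose and 4.91% fell, so the share of members was near that of all genes. The median change was 0.82 over the 21 genes and 0.51 over all genes. Quantile normalization gave 0 rises and 2 falls (Rrm2 at −1.16 and Mcm10 at −1.40, adjusted p = 0.0196 and 0.0404), and scaling without the 37 mitochondrial genes left Mcm7 and Pcna as rises. Over all genes the first gave 1218 rises and 1217 falls, and the second 1940 rises and 863 falls. Without a filter 2 of all 47 rose, a share below the 8.99% of all genes fitted that rose. Leaving out UUO replicate 3 or sham replicate 4 gave 2 genes, and leaving out sham replicate 2 gave 3. The 8 PT markers went from between 2534 and 3438 FPKM in sham to between 671.9 and 902.9 FPKM in UUO, while the 4 thick ascending limb markers went from between 20.8 and 24.4 to between 144.5 and 186.5 FPKM and the 4 monocyte markers from between 1.34 and 5.71 to between 25.95 and 31.84 FPKM. The mitochondrial share went from 68.9% to 75.6% in sham to 58.7% to 66.4% in UUO and the number of genes with at least 1 FPKM from between 9502 and 9816 to between 11282 and 12062, and the part of these cells and measures was not tested.

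In PT cells Mcm7 was at 2.92, 2.21 and 3.25 FPKM in sham, at 7.96, 6.81, 11.53 and 6.99 FPKM in UUO and at 5.52, 7.59 and 5.53 FPKM in rUUO. All UUO and rUUO samples lay above sham. The UUO change was 1.28 ± 0.27 (adjusted p = 0.0025), 1.03 when scaled without mitochondrial genes (adjusted p = 0.0116) and 0.66 after quantile normalization (adjusted p = 0.0929). Pcna was at 17.56, 9.45 and 11.64 FPKM in sham, at 31.1, 25.58, 26.52 and 25.71 FPKM in UUO and at 22.24, 21.44 and 13.12 FPKM in rUUO. UUO lay above sham and rUUO overlapped it (1.06 ± 0.25, adjusted p = 0.00617 in UUO, and 0.65 after quantile normalization, adjusted p = 0.0986). Ccnb1 was at 0.11, 0.51 and 0.42 FPKM in sham and at 0.64, 3.87, 1.91 and 2.08 FPKM in UUO (1.12 ± 0.39, adjusted p = 0.0391). Ube2c was at 0.71, 0.36 and 0.24 FPKM in sham and at 3.92, 0.56, 3.79 and 2.49 FPKM in UUO, where the second UUO sample lay within the sham range (1.24 ± 0.40, adjusted p = 0.03). Stmn1 was at 13.58, 16.91 and 16.73 FPKM in sham and at 21.23, 28.31, 33.24 and 22.76 FPKM in UUO (0.70 ± 0.23, adjusted p = 0.0324). Mki67 had no such pattern in PT cells, with 0.84, 7.14 and 0.97 FPKM in sham, 0.78, 1.12, 2.12 and 1.84 FPKM in UUO and 2.06, 1.28 and 0.91 FPKM in rUUO (−0.36 ± 0.47, adjusted p = 0.573), and its highest value was that of a sham sample. Between rUUO and UUO no member passed by limma, where 3.83% of all genes were called at the adjusted threshold. Between rUUO and sham none did, where 7.46% of all genes were called, and 1 passed when rUUO replicate 2 was left out. At an unadjusted p under 0.05 the numbers of members were 2 and 3 of 21, and the share of all genes at that level was not taken.

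**Figure D5:**
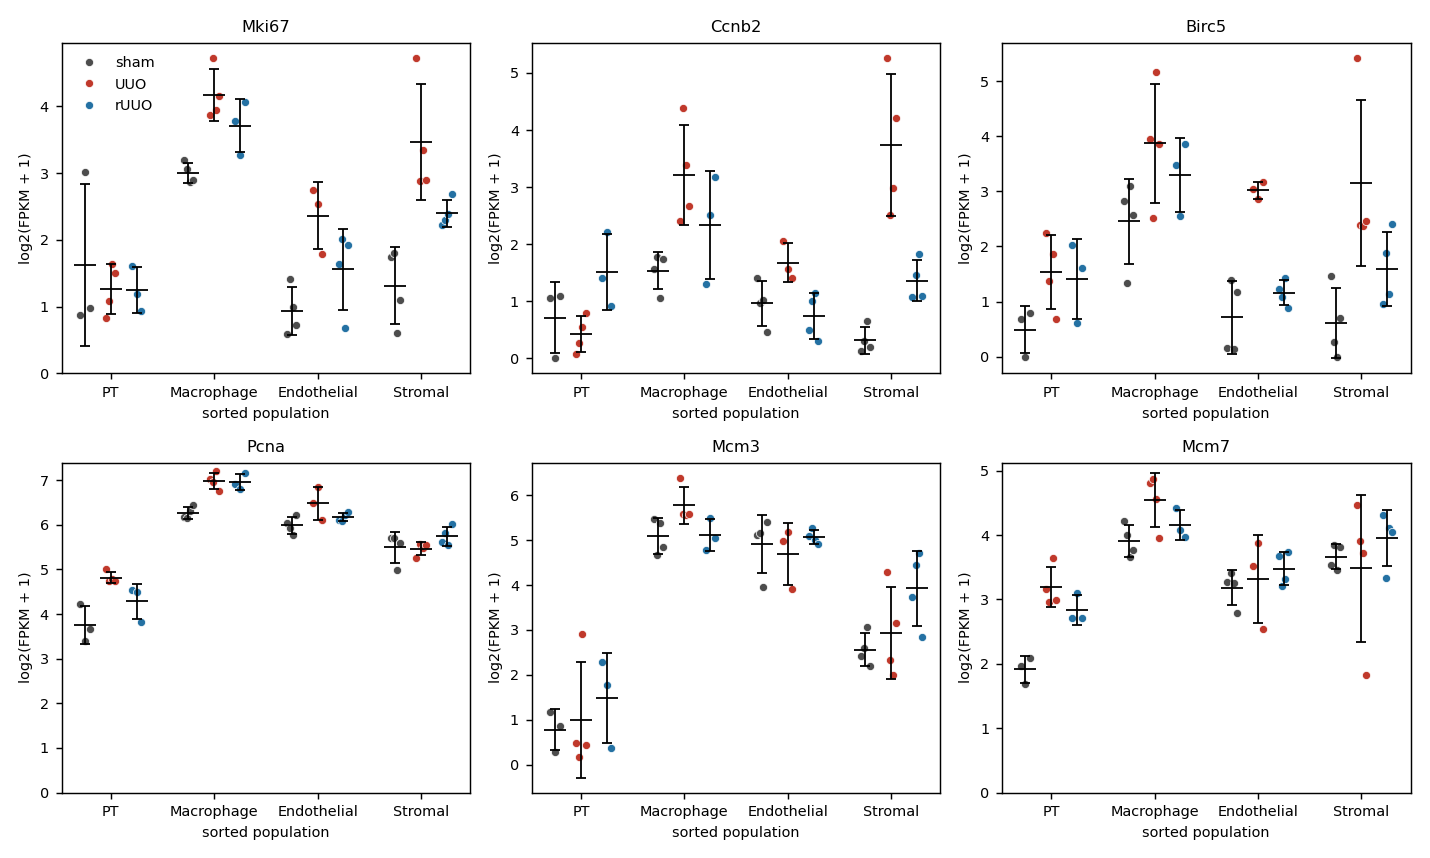
Log2(FPKM + 1) (y axis) of Mki67, Ccnb2, Birc5, Pcna, Mcm3 and Mcm7 in each sample, by population and surgery; lines are group means and bars the SD. Ccnb2 separates stromal UUO from stromal sham, Birc5 separates UUO from sham in endothelial and stromal cells, Pcna is flat in stromal cells, and Mcm7 is higher in UUO than in sham in PT cells.

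The difference between populations in the UUO change was tested itself, as a contrast of contrasts over 46 members and 16931 genes. It was largest between PT and stromal cells, with 8 members whose change was lower in PT cells and 2 whose change was higher, while 5.8% of all genes had a lower and 20.5% a higher change in PT cells. Ccnb2 (−3.71 ± 0.64 SE, adjusted p = 1.98e-05), Rrm2 (−2.57 ± 0.63, adjusted p = 0.00204) and Mki67 (−2.51 ± 0.57, adjusted p = 0.000775) led the lower ones, followed by Bub1, Kif20a, Cdca8, Top2a and Kif2c. Mcm7 (1.46 ± 0.49, adjusted p = 0.0222) and Pcna (1.10 ± 0.27, adjusted p = 0.00191) were those higher in PT cells. The share of members called lower was above that of all genes, and the share called higher was below it. Quantile normalization gave 19 lower and 1 higher, while of all genes 1978 were lower and 1989 higher. Without stromal UUO replicate 1 the numbers of members were 4 and 2.

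Between the other populations fewer members differed. Against macrophages the PT change was lower for Rrm2 (−2.46 ± 0.63, adjusted p = 0.00634) and Ccnb2 (−1.97 ± 0.64, adjusted p = 0.0332), where 1.8% of genes were called lower, and against endothelial cells for Rrm2 (−2.23 ± 0.66, adjusted p = 0.022) and Mki67 (−1.79 ± 0.59, adjusted p = 0.0441), where 1.05% were called lower. The stromal change exceeded that of endothelial cells for Ccnb2, Stmn1 and Hmmr (5.99% of genes), with endothelial minus stromal values of −2.71, −1.62 and −1.53 (adjusted p = 0.00288, 0.0214 and 0.043). This share of members was near that of all genes. The stromal change exceeded that of macrophages for Cdc20 (−2.03, adjusted p = 0.0496) and Ccnb2 (−1.75, adjusted p = 0.0469) and was below it for Pcna (0.75, adjusted p = 0.0433), where 7.51% and 7.81% of genes were called in these directions. Here the shares of members were below those of all genes. For macrophage and endothelial changes limma gave 4 members an unadjusted p under 0.05, and the share of all genes at that level was not taken. After adjustment 0 members were called, while 2.43% of genes were. These counts moved by more than 1.5 times when single samples were left out. For macrophages against stromal cells the count was 0 without macrophage UUO replicate 3, macrophage sham replicate 1, stromal UUO replicate 1 or stromal sham replicate 1, 2 or 4, and 1 without macrophage UUO replicate 1 or 2, macrophage sham replicate 2 or 4 or stromal UUO replicate 4. For endothelial against stromal cells it was 1 without stromal UUO replicate 1, stromal sham replicate 3 or endothelial UUO replicate 4. For PT against endothelial cells it was 0 without PT sham replicate 2 or endothelial UUO replicate 1, and 1 without PT UUO replicate 1 or 2 or endothelial sham replicate 1, 3 or 4. For PT cells against macrophages it was 1 without PT UUO replicate 1 or 2 or macrophage UUO replicate 3 and 4 without macrophage UUO replicate 4, and for macrophages against endothelial cells it was 1 without endothelial sham replicate 3.

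The likeness of the other members to Mki67 was highest in stromal cells and lowest in PT cells. Across the 12 stromal samples the median Pearson r of the other 46 genes with Mki67 was 0.75, and 39 of them had r over 0.5, led by Hmmr, Top2a and Birc5, with Pcna lowest at 0.03. The median was 0.54 in macrophages over 11 samples (led by Rrm2, Ccnb2 and Rrm1), 0.52 in endothelial cells over 11 (Top2a, Aurkb and Cenpe) and −0.07 in PT cells over 10. With group means removed it was 0.54 in stromal cells, 0.33 in endothelial cells, −0.12 in macrophages and 0.04 in PT cells. The samples share surgery, library and depth, stromal UUO replicate 1 is among the points, and these values are given as descriptions.

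Other genes of the same pathways were taken from lists of names. Among them the gene of cyclin D1 fell in 3 of the 4 populations. Ccnd1, whose product drives exit from quiescence, was at 53.27, 46.27, 53.03 and 40.04 FPKM in stromal sham cells, at 9.24, 13.56, 10.9 and 10.15 FPKM in UUO and at 28.55, 26.31, 21.25 and 27.7 FPKM in rUUO. The 3 groups did not overlap, with UUO lowest, and the change was −2.04 ± 0.19 (adjusted p = 1.71e-06) in UUO against sham and 1.18 in rUUO against UUO (adjusted p = 0.00421). In macrophages Ccnd1 went from between 104.07 and 142.13 FPKM to between 53.86 and 64.87 FPKM (−1.0 ± 0.16, adjusted p = 0.00223), and in PT cells its change was −0.99 (adjusted p = 0.0187). Of the 9 D cyclin and CDK genes, 3 fell in macrophages (Ccnd1, Ccnd2 at −1.35 and Cdk6 at −0.98), while Cdk4, a partner of D cyclins, rose in stromal (0.70) and PT cells (1.23). The PT call of Cdk4 was lost after quantile normalization (0.81, adjusted p = 0.0725).

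Among the 8 CDK inhibitors, 4 of the 5 tested rose in PT cells, where 27.9% of all genes rose. Cdkn1a, which encodes p21, was at 4.49, 1.43 and 2.28 FPKM in PT sham, at 69.84, 75.52, 89.47 and 51.77 FPKM in UUO and at 48.74, 29.38 and 50.09 FPKM in rUUO, with sham far below both. Its change was 4.34 ± 0.30 (adjusted p = 1.45e-07) in UUO, 3.87 after quantile normalization and 3.60 in rUUO against sham. Cdkn1c, p57, rose by 1.53. With quantile normalization, and also when rescaled without mitochondrial genes, 1 of the 5 rose. In stromal cells 1 of 7 inhibitors tested rose, Cdkn3 (1.54), and in macrophages limma called 0 of 6.

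Of 28 further mitosis genes tested in stromal cells 12 rose and 2 fell, and of 28 origin and fork genes 1 rose and 1 fell, where 13.4% of all genes rose and 13% fell. As for the members, genes low in sham could pass the filter through their UUO values, in this and the other populations. These list counts are therefore no support for a direction, and they were not taken without the filter. Anln, a scaffold of the cleavage furrow, was at 0.91, 0.39, 0.63 and 1.42 FPKM in stromal sham cells and at 20.32, 8.3, 10.46 and 6.16 FPKM in UUO (2.65, adjusted p = 5.16e-05), and Cks1b, a CDK subunit, rose by 2.21 (adjusted p = 0.0036). The falls were those of Pttg1, securin (−1.27), and Bub3 (−0.76), and in the other list Prim2 rose by 1.00 and Dnmt1 fell by 0.92. Of 15 Rb, E2F and DREAM genes, the repressors E2f7 (1.62) and E2f8 (1.29) rose and E2f5 (−1.02) and Rb1 (−0.80) fell. These shares were near those of all genes, and when rescaled without mitochondrial genes 1 of the 15 rose.

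In macrophages, where 2.86% of all genes rose, 2 of 34 further mitosis genes rose (Cks1b at 1.85 and Kif15 at 1.78), 3 of 32 origin and fork genes rose, among them Cdc45 (1.80) and Mcm8 (1.51), and Tfdp1, an E2F partner, rose by 1.28. In endothelial cells 1 of 22 mitosis genes rose, the checkpoint gene Mad2l1, which was at 1.75, 1.02, 2.58 and 2.86 FPKM in sham and at 7.93, 7.2 and 30.88 FPKM in UUO (2.16, adjusted p = 0.0322). In PT cells 6 of 11 mitosis genes (Ncapd2 at 1.85 and Wee1 at 1.59), 4 of 20 origin and fork genes (Gins2 at 1.80 and Lig1 at 1.17) and 4 of 13 Rb, E2F and DREAM genes (Lin37 at 2.14 and E2f4 at 0.89) rose. Of all genes 27.9% rose there, so the shares of the last 2 lists were near the share of all genes. With quantile normalization these PT counts were 2, 0 and 1.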

How the data were processed

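The data were a single table that the authors deposited, with FPKM of 53465 genes, values scaled by transcript length and mapped total. The RNA of the sorted cells was amplified (Ovation RNA-Seq System V2) before Illumina HiSeq sequencing. The submitters' processing notes name FastQC, Bowtie2, RSEM, DESeq2 and mm10. FPKM are not counts, so absolute depth is unknown and no count model was used. Amplification of small RNA amounts can add to the spread of low genes. Of 46 value columns 44 were used; the other 2 share the name of a single endothelial UUO sample. A PT sample whose title names both surgeries was taken as UUO, as its treatment label says.

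Groups were compared within a population by limma (eBayes with trend) on log2(FPKM + 1), leaving out genes whose mean was under 1 FPKM, with Benjamini-Hochberg adjustment over all genes tested and a threshold of 0.05. All samples of a population shared 1 estimate of the spread. Sham populations, and UUO changes between populations, were compared in 1 fit of all 4 populations. Filtered genes are not all members. Values in every sample are given for 19 members fixed by name where they passed, and for the 3 largest rises and falls per comparison. Other values, such as those of genes that did not pass, were added after they were seen. Other pathway genes named are up to 2 per list and direction. The members, lists and motifs were chosen with earlier results of these data known. Alternatives were a pseudocount of 0.1, no filter, rescaling to TPM, rescaling without mitochondrial genes, quantile normalization, a joint fit, blocks and leaving out each sample. The scripts were tested on simulated data. R 4.3.3 ran limma 3.58.1, and Python 3.11.15 ran scipy 1.17.1, pandas 2.3.3, matplotlib 3.10.9 and numpy 2.4.6.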

Additional observations from a re-analysis of the deposited data

Results flagged for a closer look

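In 13 cases the highest or lowest of 4 samples in a group stood apart from the other 3 (Dixon's criterion at the 95% level, 160 groups looked at for the mean of the 47 genes and for the genes described by sample). Chance alone marks about 1 in 20 groups. For the mean log2(FPKM + 1) over the 47 genes, stromal UUO replicate 1 was highest at 3.647 with the others between 2.172 and 2.321, stromal rUUO replicate 1 was lowest at 1.839 (others 1.956 to 1.965) and endothelial rUUO replicate 4 was lowest at 1.540 (others 1.687 to 1.713). In stromal UUO replicate 1 Birc5 was at 41.55 FPKM with the others between 4.14 and 4.53.

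Tk1 was highest at 61.74 FPKM in macrophage UUO replicate 1 (others 26.13 to 28.44) and at 10.91 FPKM in stromal rUUO replicate 4 (others 3.8 to 4.5). Pcna was lowest at 30.66 FPKM in stromal sham replicate 3 (others 47.55 to 51.09), and E2f1 at 0.21 FPKM in stromal sham replicate 2 (others 0.49 to 0.54). Ccna2 was highest at 0.87 FPKM in endothelial sham replicate 2 (others 0.65 to 0.67) and Ccnb1 at 1.59 FPKM in macrophage sham replicate 3 (others 0.15 to 0.32). Ccne1 was at 0.22 FPKM in PT UUO replicate 4, 0.28 FPKM in macrophage sham replicate 1 and 0.19 FPKM in stromal sham replicate 2, with the other samples of each group listed at 0. Where all others are at 0, any value above 0 meets the criterion, so these Ccne1 cases carry no information beyond that.

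The UUO change differed between populations by the limma contrast of contrasts for 20 pairs of gene and populations. As PT minus stromal values on the log2 scale these were Ccnb2 −3.71, Rrm2 −2.57, Mki67 −2.51, Bub1 −2.08, Kif20a −2.03, Cdca8 −1.65, Top2a −1.54, Kif2c −1.29, Pcna 1.10 and Mcm7 1.46. As PT minus macrophage they were Rrm2 −2.46 and Ccnb2 −1.97, and as PT minus endothelial Rrm2 −2.23 and Mki67 −1.79. As macrophage minus stromal they were Cdc20 −2.03, Ccnb2 −1.75 and Pcna 0.75, and as endothelial minus stromal Ccnb2 −2.71, Stmn1 −1.62 and Hmmr −1.53. For endothelial minus stromal values the share of members called was near that of all genes. For macrophage minus stromal values and the higher PT minus stromal values it was below that share. The causes of the differences between populations were not tested.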

How the results depend on the processing

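Leaving out single samples aside, 122 of 156 member counts over 24 comparisons stayed within 1.5 times their value, and the causes of the other 34 moves were not tested. With a pseudocount of 0.1 the counts were 1 for PT rUUO against sham, 2 for endothelial UUO against sham, 1 for stromal rUUO against UUO, 1 for the PT minus macrophage and 1 for the macrophage minus stromal UUO change, 13 for sham PT against stromal and 4 for sham endothelial against stromal. Without a filter, which adjusts over more genes, they were 2 for PT and 5 for macrophage UUO against sham, 1 for macrophage rUUO against sham, 0 for stromal rUUO against UUO, and 1, 1 and 0 for the PT minus macrophage, PT minus endothelial and macrophage minus stromal UUO changes. Rescaled to TPM, the PT minus endothelial change had 1. Rescaled without mitochondrial genes, PT UUO against sham had 2, macrophage rUUO against sham 0, PT minus macrophage 4 and macrophage minus stromal 1. With quantile normalization PT UUO against sham had 2 (both lower), endothelial UUO against sham 2, PT minus macrophage 10, PT minus endothelial 6, PT minus stromal 20, macrophage minus stromal 1 and sham PT against macrophage 16, and the sham PT counts against endothelial (5 higher, 3 lower) and stromal cells (7 higher, 2 lower) turned round in direction. Fitted over all 4 populations, endothelial UUO against sham had 6, stromal rUUO against UUO 7 and stromal rUUO against sham 6. The 23 stromal UUO rises stayed within 1.5 times under every one of these settings. For single genes, 2 of 147 called values changed sign, under quantile normalization in sham PT against stromal cells, to 0.47 for Mcm6 and 0.0303 for Cenpe.

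With a replicate block the counts were 3 for PT UUO against sham, 0 for macrophage rUUO against sham, 0 for endothelial UUO against sham and 0 for stromal rUUO against UUO, and with mouse as a random replicate block PT minus macrophage had 4. Replicate numbers did not pair the samples of a population: over 35 pairs of the same number and different surgery, the correlation of deviations from the group means was −0.06 to 0.10. Between populations of the same surgery it was −0.075 to 0.167 over 57 pairs of the same number. Over 184 pairs of different number it was −0.157 to 0.084.

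Leaving out each sample in turn gave counts for UUO against sham of 2 to 7 in PT cells, 4 to 12 in macrophages, 1 to 3 in endothelial cells and 16 to 25 in stromal cells, for rUUO against sham of 0 to 1 in PT cells, 0 to 1 in macrophages and 2 to 4 in stromal cells, and for stromal rUUO against UUO of 1 to 4. For UUO changes between populations the ranges were 1 to 4 (PT minus macrophage), 0 to 3 (PT minus endothelial), 6 to 13 (PT minus stromal), 0 to 1 (macrophage minus endothelial), 0 to 4 (macrophage minus stromal) and 1 to 4 (endothelial minus stromal), and for sham groups 22 to 27 (PT against macrophage), 7 to 8 (PT against endothelial), 5 to 9 (PT against stromal), 14 to 19 (macrophage against endothelial), 16 to 20 (macrophage against stromal) and 2 to 4 (endothelial against stromal).

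In promoter windows of the 250 bases before the start alone, CHR words were in 13 of 39 members (33.3%) and 7 of 20 mitotic genes (35%), against 19.6% of all genes. FPKM rounded to 2 decimals give no counting error, so low genes such as Ccne1 carry no statement of absence.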
